A study of Mus musculus with 18 samples.

Results

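Spi1, Runx1, Cebpa, Cebpb, Irf5, Irf8 and Zeb2 are transcription factor genes of the myeloid lineage, which gives rise to monocytes, macrophages and granulocytes. They were taken from the count table of injured mouse carotid arteries by gene symbol. All 7 were among the 35655 genes of the table, and all 7 passed the filter on low counts that left 10312 genes for testing. Spi1, Runx1, Cebpa, Irf5 and Irf8 were too low on day 0 to meet the filter there, and passed it through the injured libraries.

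The tissue was carotid artery of wild-type (WT) C57/BL6 mice, male and aged 11 weeks when a wire was passed through the left carotid to strip and stretch its wall. Frozen sections were stained, the vessel wall inside the outer elastic layer was cut out by laser, and many sections were pooled for each RNA extract, which was read by MACE-seq, a method that counts the 3′ ends of polyadenylated transcripts. The groups were day 0, labelled pre-injury (4 libraries), and day 7 (4), day 14 (3), day 21 (4) and day 28 (3) after injury. No animal carried a transgene or received a special diet. Neointima, the tissue that grows inward after injury, is missing from a vessel before injury, so the day 0 libraries hold another mixture of cells than the later ones. The labels of 3 day 0 libraries carry mouse numbers that recur on day 21. The methods of the study name the unoperated right carotid as the control, while the labels call day 0 pre-injury. The libraries held between 440675 and 878310 counts, with a median of 659166, so that a member with 0 counts in a library could still have a level of up to 3.59 to 4.96 CPM, the count scaled to a common library size, with 3 counts as the limit. Such limits cover counting error only.

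PU.1, the protein of Spi1, is an ETS-family factor at the top of the myeloid programme, and RUNX1 acts before it by opening the Spi1 locus in blood progenitors. C/EBPα and C/EBPβ then drive granulocyte and monocyte genes, with C/EBPβ also induced in many other cells by inflammatory signals, while IRF8 and IRF5 direct monocyte, dendritic cell and inflammatory macrophage genes. ZEB2 is a zinc-finger repressor that keeps macrophage identity in tissues and is also made by mesenchymal and smooth muscle cells. In its single-cell data of the same injury, the study reports Cebpb and Runx1 in SEM (stem cell, endothelial cell, monocyte) cells. It proposes that these are modulated smooth muscle cells, so neither gene is particular to myeloid cells here.

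The promoter letters of the members are shown because all 7 genes were called higher on day 7 and encode factors that bind such letters. The RefSeq table of promoters, on build GRCm38.p6, held 11 start sites for 6 members and no entry for Spi1. In the 250 bases before each start, both strands were searched for 6 strings, and a match is a description of letters and not of a bound site. The PU.1 string GAGGAA was in 5 of the 11 starts and in 2 of the 6 members, Zeb2 and Runx1, while 23.3% of 32851 promoters of all genes held it. All 4 Zeb2 starts had it, although starts 2 and 3 of Zeb2 overlap and share 1 match. The C/EBP string TTGCNNAA was in 1 start, that of Zeb2, against 9.56% of all promoters. The RUNX string TGNGGT was in 3 starts, of Zeb2, Irf5 and Irf8, against 40.1%, and the E-box string CAGGTG, bound by ZEB proteins, was in 2 starts, of Irf8 and Runx1, against 17.2%. The IRF string (an interferon-response element) and the ETS-IRF composite string were in 0 of the 11 starts, against 2.98% and 2.3%. The strings for PU.1 and ETS-IRF, and those for IRF and ETS-IRF, can overlap. Below, capitals mark the matches. The Zeb2 start has a C/EBP match (bases 221 to 214 before the start) and a PU.1 match (118 to 113), the Runx1 start has a PU.1 match on the other strand (46 to 41), and Irf5 has a RUNX match (83 to 78). Cebpa and Cebpb, shown as a pair of relatives, had no match, and G and C made up 66.4% and 81.6% of their letters.
Zeb2, start 1 of 4 (chr2:45117443-45117692, minus strand): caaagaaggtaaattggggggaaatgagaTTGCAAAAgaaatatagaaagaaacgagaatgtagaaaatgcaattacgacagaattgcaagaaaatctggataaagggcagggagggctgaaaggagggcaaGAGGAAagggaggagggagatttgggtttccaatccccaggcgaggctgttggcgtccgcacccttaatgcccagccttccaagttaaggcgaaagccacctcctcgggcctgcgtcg
Runx1, start 2 of 2 (chr16:92697330-92697579, minus strand): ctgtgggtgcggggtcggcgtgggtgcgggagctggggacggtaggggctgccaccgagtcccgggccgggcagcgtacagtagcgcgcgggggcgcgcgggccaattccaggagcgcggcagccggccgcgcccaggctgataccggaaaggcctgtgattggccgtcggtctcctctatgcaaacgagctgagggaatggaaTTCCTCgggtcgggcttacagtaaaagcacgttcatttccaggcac
Irf5 (chr6:29526375-29526624, plus strand): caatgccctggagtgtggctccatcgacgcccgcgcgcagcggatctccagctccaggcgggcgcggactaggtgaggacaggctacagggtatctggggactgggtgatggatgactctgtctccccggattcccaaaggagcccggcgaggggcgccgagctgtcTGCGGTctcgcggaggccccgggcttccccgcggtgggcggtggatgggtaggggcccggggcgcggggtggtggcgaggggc
Cebpa (chr7:35119043-35119292, plus strand): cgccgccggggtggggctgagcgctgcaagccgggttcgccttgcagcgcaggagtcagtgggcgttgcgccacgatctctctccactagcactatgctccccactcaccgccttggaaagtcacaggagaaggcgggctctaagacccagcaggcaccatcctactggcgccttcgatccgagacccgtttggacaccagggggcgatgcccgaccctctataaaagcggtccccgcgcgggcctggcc
Cebpb (chr2:167688665-167688914, plus strand): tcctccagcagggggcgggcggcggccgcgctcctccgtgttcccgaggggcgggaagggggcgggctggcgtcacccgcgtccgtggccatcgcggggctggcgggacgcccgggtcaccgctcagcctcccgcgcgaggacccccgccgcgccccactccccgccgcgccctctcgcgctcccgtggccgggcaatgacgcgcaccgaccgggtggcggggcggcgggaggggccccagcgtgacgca

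On day 7 every one of the factors was higher than before injury. By edgeR's quasi-likelihood test, adjusted over all 10312 genes, 7 of 7 members were called higher on day 7, where 11.3% of all genes tested were called higher. The number called was 3 of 7 at day 14 (4.8% of all genes), 3 of 7 at day 21 (5.92%) and 0 of 7 at day 28 (0.97%, with 3 members at an unadjusted p under 0.05). The median log2 fold change of the members was 4.05, 3.09, 2.31 and 0.69 on days 7, 14, 21 and 28, while the median of all genes tested lay between -0.01 and 0.07. For 6, 4, 6 and 1 members on these days every library lay above every day 0 library, an order held by 13.6%, 10.7%, 9.31% and 4.88% of all genes. These 4 comparisons share the day 0 libraries. Spi1, Runx1, Cebpa, Irf5 and Irf8, at most 14.3 CPM in any day 0 library, passed the filter on low counts through the injured libraries. The shares of members called, here and below, are therefore a description only. In bulk tissue, a change in the number of cells of a type and a change in RNA per cell cannot be told apart.

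**Figure D1:**
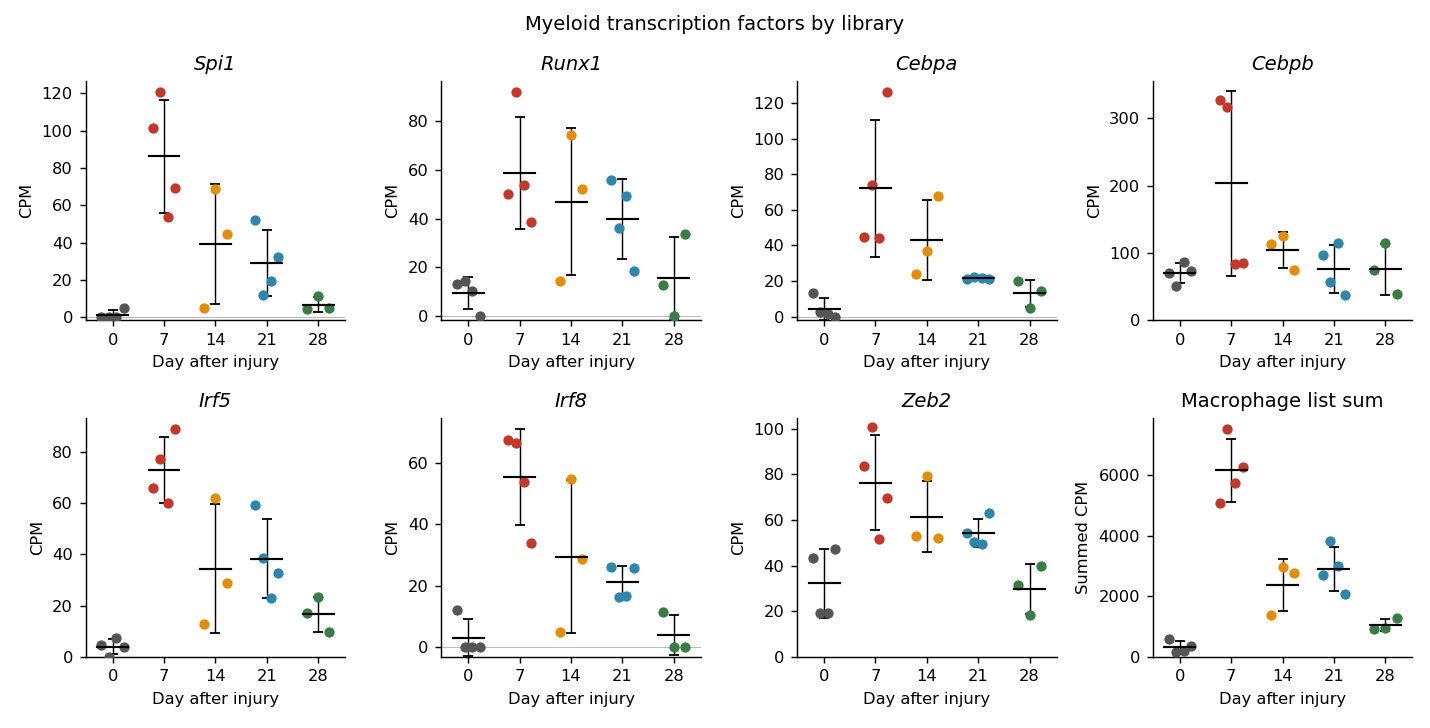
CPM (counts scaled to a common library size) of each of the 7 genes in each library by day after injury, with the summed CPM of 16 macrophage marker genes in the last panel. Points are libraries, horizontal lines means and error bars 1 SD (n = 4, 4, 3, 4 and 3). All 4 day 7 libraries lie above all day 0 libraries for 6 genes, and for Cebpb 2 of the 4 lie within the day 0 range.

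The pioneer factors come first. Spi1 (chr2:90912562-90946101, plus strand, GRCm39) was nearly absent before injury, with 0 counts in 3 of 4 day 0 libraries and 5.25 CPM, or 4 counts, in the fourth. Day 7 libraries held 101, 120.4, 53.8 and 69.4 CPM and day 14 libraries 4.80, 68.8 and 44.4 CPM. Day 21 libraries held 52.0, 12.1, 19.7 and 32.6 CPM, and day 28 libraries 4.31, 11.6 and 4.79 CPM. The day 7 and day 21 libraries were all above day 0, whereas 1 day 14 library and 2 day 28 libraries were below the single day 0 library with counts. The rise on day 7 was the largest among the members, with a log2 fold change of 5.80 ± 0.86 (SE derived from the F statistic; edgeR, adjusted p = 2.61e-05), a 55.9-fold difference that rests on 4 counts on day 0. Days 14 and 21 were also called, at 4.67 ± 0.90 and 4.27 ± 0.88 (edgeR, adjusted p = 0.00181 and 0.00285), but day 28 was not (2.18 ± 1.04, adjusted p = 0.328). Between day 7 and day 28 it fell by 3.62 ± 0.81 on the log2 scale (edgeR, adjusted p = 0.00354), with every day 28 library below every day 7 library.

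Runx1 (chr16:92398354-92623037, minus strand) encodes the DNA-binding subunit of core-binding factor. It was at 13.4, 14.3, 10.4 and 0 CPM on day 0 and at 49.9, 91.6, 53.8 and 38.7 CPM on day 7. Day 14 libraries had 14.4, 74.1 and 52.2 CPM, day 21 libraries 55.6, 36.3, 49.3 and 18.6 CPM, and day 28 libraries 12.9, 0 and 33.6 CPM. No library of days 7, 14 or 21 reached down to the day 0 range, although the lowest day 14 library stood only just above it. The log2 fold change was 2.59 ± 0.73 on day 7 (edgeR, adjusted p = 0.0124). Days 14 and 21 gave 2.27 ± 0.76 and 2.07 ± 0.73, which missed the threshold (adjusted p = 0.0817 and 0.0779). Without replicate 2 of day 7 the day 7 call was lost (adjusted p = 0.0563), and without replicate 1 of day 14 or replicate 2 of day 28 the day 14 value passed (0.0341 and 0.0323). On day 28 the difference from day 0 was 0.69, with a 95% interval of -0.98 to 2.37. Runx1 was the 1 member not called lower on day 28 than on day 7 (-1.90 ± 0.78, edgeR, adjusted p = 0.108).

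The C/EBP pair is described next. Cebpa (chr7:34818718-34821353, plus strand, 1 exon), the factor of granulocyte and monocyte commitment, was at 13.4, 2.39, 1.49 and 0 CPM on day 0 and at 44.5, 73.7, 43.9 and 126 CPM on day 7. Day 14 libraries had 24.0, 37.1 and 67.8 CPM, day 21 libraries 21.3, 22.2, 21.4 and 20.9 CPM, and day 28 libraries 20.1, 4.96 and 14.4 CPM. Every library of days 7, 14 and 21 exceeded every day 0 library, and the 4 libraries of day 21 were the closest to one another of any member on any day after injury (SD 0.533 CPM). The log2 fold change was 4.05 ± 0.69 at day 7 (edgeR, adjusted p = 0.000133), 3.31 ± 0.71 at day 14 (0.00481), 2.31 ± 0.70 at day 21 (0.0395) and 1.62 ± 0.76 at day 28 (0.316). The call on day 21 was lost in 11 of the alternatives tried, among them leaving out replicates 2, 3 or 4 of day 0, replicate 2 of day 7 or any 1 of the day 21 libraries, with adjusted p up to 0.11. From day 7 to day 28 Cebpa fell by 2.43 ± 0.68 on the log2 scale (edgeR, adjusted p = 0.0177), a call lost without replicate 4 of day 7 (0.0661) or replicate 2 of day 28 (0.0758).

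Cebpb (chr2:167530835-167532338, plus strand, 1 exon), the inflammation-induced relative, was already present in the uninjured wall at 70.0, 51.4, 86.4 and 73.5 CPM. On day 7 its libraries split into 2 at 328 and 316 CPM and 2 at 83.7 and 85.6 CPM, the latter inside the day 0 range. The 3 later days, with 114, 125 and 74.4 CPM (day 14), 97.0, 56.5, 115 and 37.2 CPM (day 21) and 74.7, 114 and 38.3 CPM (day 28), all overlapped day 0. The day 7 difference of 1.53 ± 0.43 (edgeR, adjusted p = 0.0117) was carried by the high pair and was lost without replicate 1 (0.0832) or replicate 2 (0.0754) of day 7. The same day 7 libraries differed in the summed CPM of 7 endothelial markers, which was 513 and 663 in the pair with high Cebpb and 1726 and 1480.4 in the other. Platelet marker sums were 337 and 386 against 213.3 and 213.1 CPM, and Spi1 was at 101 and 120.4 against 53.8 and 69.4 CPM. Of these platelet sums, Pf4 alone made up 265 and 340 against 134 and 149 CPM, and the rest did not divide the pairs. Macrophage marker sums did not divide the pairs (5089 and 7517 against 5741 and 6249 CPM). The part of these differences in the Cebpb values was not tested. No difference from day 0 passed later (0.57, 0.14 and 0.11 at days 14, 21 and 28, edgeR, adjusted p from 0.635 to 0.949), and the 95% interval on day 28 was -0.85 to 1.07. Against day 7, Cebpb was lower at day 21 (-1.39 ± 0.43, edgeR, adjusted p = 0.0478) and at day 28 (-1.42 ± 0.47, 0.0434), and these calls were lost in 17 and 13 alternatives, with adjusted p up to 0.22 and 0.186. An exon of Peds1 on the opposite strand overlaps Cebpb, its 3′ end lies 47822 bases away, and Peds1 itself was higher on day 7 (1.28 ± 0.32, edgeR, adjusted p = 0.00512). Whether the counting used strand is not given in the sources used here.

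The ratio of Cebpa to Cebpb counts within a library, a comparison chosen after the values were seen, was -4.64 ± 1.90 (SD, log2) before injury. After injury it was -1.33 ± 1.49, -1.36 ± 1.09, -1.66 ± 0.74 and -2.51 ± 1.58 at days 7, 14, 21 and 28. Exact two-sided permutation tests gave p = 0.0571 for each of days 7, 14 and 21 against day 0, where 0.0286 was the smallest possible, and 0.2 after adjustment over 14 such ratio tests. The ratio therefore did not pass a test on any day.

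Irf5 (chr6:29526276-29541870, plus strand), which acts below Toll-like receptors and MyD88, had the smallest SD relative to its mean of any member on day 7. It was at 4.47, 0, 7.45 and 3.94 CPM before injury and at 65.9, 77.3, 59.8 and 88.8 CPM on day 7. Day 14 libraries had 12.8, 61.8 and 28.7 CPM, day 21 libraries 59.1, 38.3, 23.0 and 32.6 CPM, and day 28 libraries 17.2, 23.2 and 9.59 CPM. It was the 1 member for which every library of every later day, day 28 included, lay above every day 0 library. Its log2 fold change was 4.19 ± 0.62 at day 7 (edgeR, adjusted p = 2.62e-05), 3.09 ± 0.65 at day 14 (0.00403), 3.27 ± 0.62 at day 21 (0.0015) and 2.06 ± 0.68 at day 28 (0.142). The day 14 call was lost without replicate 2 of day 14 (0.082). Between day 7 and day 28 Irf5 fell by 2.12 ± 0.59 on the log2 scale (edgeR, adjusted p = 0.0175), a call lost without replicate 3 of day 28 (0.0745). Tnpo3, on the opposite strand with its 3′ end 1046 bases from that of Irf5, was not called on any day (day 7 difference -0.09, edgeR, adjusted p = 0.902).

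Irf8 (chr8:121463096-121485659, plus strand), a partner of PU.1 in monocyte and dendritic cell development, had counts in 1 day 0 library, replicate 1 at 11.9 CPM, and 0 in the other three. Day 7 libraries held 67.7, 66.5, 53.8 and 33.9 CPM, day 14 libraries 4.80, 54.7 and 28.7 CPM and day 21 libraries 26.0, 16.1, 16.4 and 25.6 CPM. On day 28 it was at 11.5 CPM in replicate 1 and at 0 in the other two, a range that overlapped day 0. The rise on day 7 was 4.20 ± 0.99 (edgeR, adjusted p = 0.00303) and held in every alternative. Days 14 and 21 missed the threshold at 3.29 ± 1.02 (adjusted p = 0.055) and 2.82 ± 0.99 (0.0771). Without replicate 1 of day 0, the library with all day 0 counts of Irf8, they passed (0.00402 and 0.00545), as they did in DESeq2 (0.0199 and 0.0367). That library also had the highest sum of the 16 macrophage markers on day 0, 587 CPM against 169.8 to 361 in the other three, and the part of this in the Irf8 value was not tested. From day 7 to day 28 the fall of 3.73 ± 1.07 on the log2 scale (edgeR, adjusted p = 0.0203) was lost without replicate 2 of day 7 (0.0503), or without replicate 2 (0.0747) or 3 (0.0704) of day 28.

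Zeb2 (chr2:44873644-45007464, minus strand) had the smallest rise on day 7 of the members. It was at 43.2, 19.1, 19.4 and 47.2 CPM on day 0 and at 83.7, 101, 51.8 and 69.4 CPM on day 7. Later values were 52.8, 79.4 and 52.2 CPM (day 14), 54.4, 50.5, 49.3 and 62.8 CPM (day 21) and 31.6, 18.2 and 39.9 CPM (day 28). The libraries of days 7, 14 and 21 all stood above day 0, and those of day 28 overlapped day 0. Only day 7 passed, with 1.24 ± 0.37 (edgeR, adjusted p = 0.0179), and it no longer passed without replicate 2 (0.0666) or 3 (0.0593) of day 0 or replicate 1 (0.0609) or 2 (0.0908) of day 7. Days 14 and 21 gave 0.93 ± 0.40 (adjusted p = 0.206) and 0.75 ± 0.37 (0.245), and day 28 gave -0.10, with a 95% interval of -0.95 to 0.75. From day 7 to day 28 Zeb2 fell by 1.35 ± 0.41 on the log2 scale (edgeR, adjusted p = 0.0291), a call lost without replicate 1 (0.0806) or 2 (0.107) of day 7 or replicate 1 (0.0568) or 2 (0.124) of day 28.

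**Figure D2:**
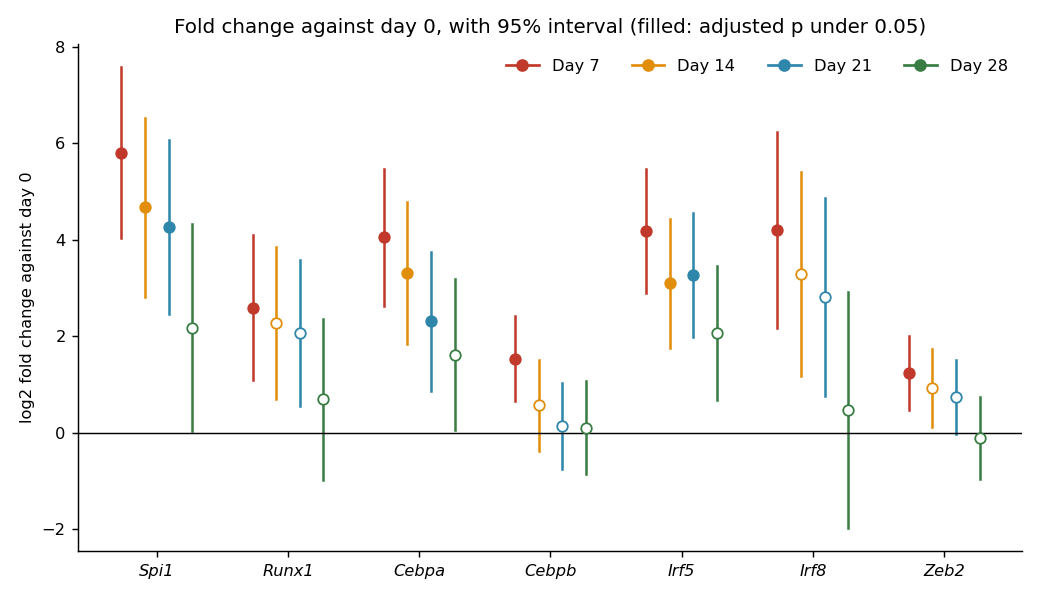
Log2 fold change of each gene against day 0 on days 7, 14, 21 and 28, with 95% intervals. The intervals were derived from the fold change and F statistic of the edgeR fit, and are not adjusted for the number of genes. Filled points passed the adjusted threshold of 0.05, as all 7 did on day 7 and none did on day 28.

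By day 28 most members stood below their day 7 level. On day 28, 6 of 7 members were called lower than on day 7, where 8.05% of all genes were called lower, and for 6 every day 28 library was below every day 7 library (14.4% of all genes). Without replicate 2 of day 7, or without replicate 2 of day 28, 3 of 7 were called. Against day 7, edgeR called 0 members on day 14 (1.66% of all genes in either direction, 1 member at an unadjusted p under 0.05) and 1 lower on day 21 (3.23% of all genes). Between days 14 and 21 it called 0 members (0 at an unadjusted p under 0.05) and 0% of all genes, and between days 21 and 28 it called 0 members (2 at an unadjusted p under 0.05) and 0.679% of all genes. DESeq2 called 0 members in these comparisons too, except 2 on day 21 against day 7. Leaving out replicate 1 of day 28, the one library of that day with Irf8 counts, made Irf8 lower on day 28 than on day 21 (edgeR, adjusted p = 0.0491).

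On day 14 the libraries differed widely. Replicate 1 was the lowest of the 3 for Spi1, Runx1, Cebpa, Irf5 and Irf8, had a macrophage marker sum of 1376 CPM against 2959 and 2761 CPM, and a smooth muscle marker sum of 23089 CPM against 7341 and 8359.5 CPM. Without it 5 members were called on day 14 in place of 3. The count also rose to 5 without replicate 2 of day 28. For day 21 against day 0, limma-voom called 4 members without a block, the fourth being Irf8 (adjusted p = 0.0205). With the mouse number as a block, which uses the 3 shared mouse numbers, limma-voom called 5, with Irf8 at 0.0144 and Runx1 added at 0.0488.

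Macrophage markers were also highest on day 7. The 16-gene list (among them Adgre1, Csf1r, Cd68, C1qa and Lyz2) summed to 326 ± 194 CPM (SD) before injury and to 6149 ± 1028, 2365 ± 863, 2896 ± 722 and 1050 ± 188 CPM at days 7, 14, 21 and 28, and 15, 14, 15 and 4 of the 16 were called higher on these days. The 4 on day 28 were Mpeg1, Laptm5, C1qb and Aif1. Some of the 16, such as Aif1 with at most 2.39 CPM in a day 0 library, passed the filter on low counts through the injured libraries. The shares of the list called are a description only. Of all genes, 11.3%, 4.8%, 5.92% and 0.97% were called higher on days 7, 14, 21 and 28. Since the list rose after injury, counts of each member were also set against its summed counts in the same library. Irf5 stood at 12.0 ± 1.93, 13.5 ± 6.39, 13.8 ± 6.35 and 16.8 ± 8.41 counts per 1000 list counts on days 7, 14, 21 and 28, and Spi1 at 14.1 ± 4.80, 14.3 ± 10.01, 11.2 ± 7.57 and 6.83 ± 4.52. Zeb2 was at 12.5 ± 3.18 on day 7 and at 28.0 ± 9.79, 20.0 ± 7.46 and 28.2 ± 8.20 on the later days. Before injury Zeb2 and Cebpb were much higher relative to this list, at 105 ± 23.9 and 272 ± 148 counts per 1000. Runx1 had a higher mean there too, at 40.8 ± 37.1 (0 to 84.5) against 9.39 ± 2.46 on day 7. The day 0 ratios rest on 125 to 394 list counts per library.

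Of 21 exact two-sided permutation tests of the log2 ratio (7 members, days 14, 21 and 28 against day 7), 0 passed after adjustment. For Zeb2, all day 14 and day 28 libraries were above all day 7 libraries, with differences of 1.14 and 1.19 on the log2 scale, both at the smallest exact p of 0.0286, which became 0.3 after adjustment. With groups of 3 and 4 no single test in this family could pass after adjustment unless many did.

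**Figure D3:**
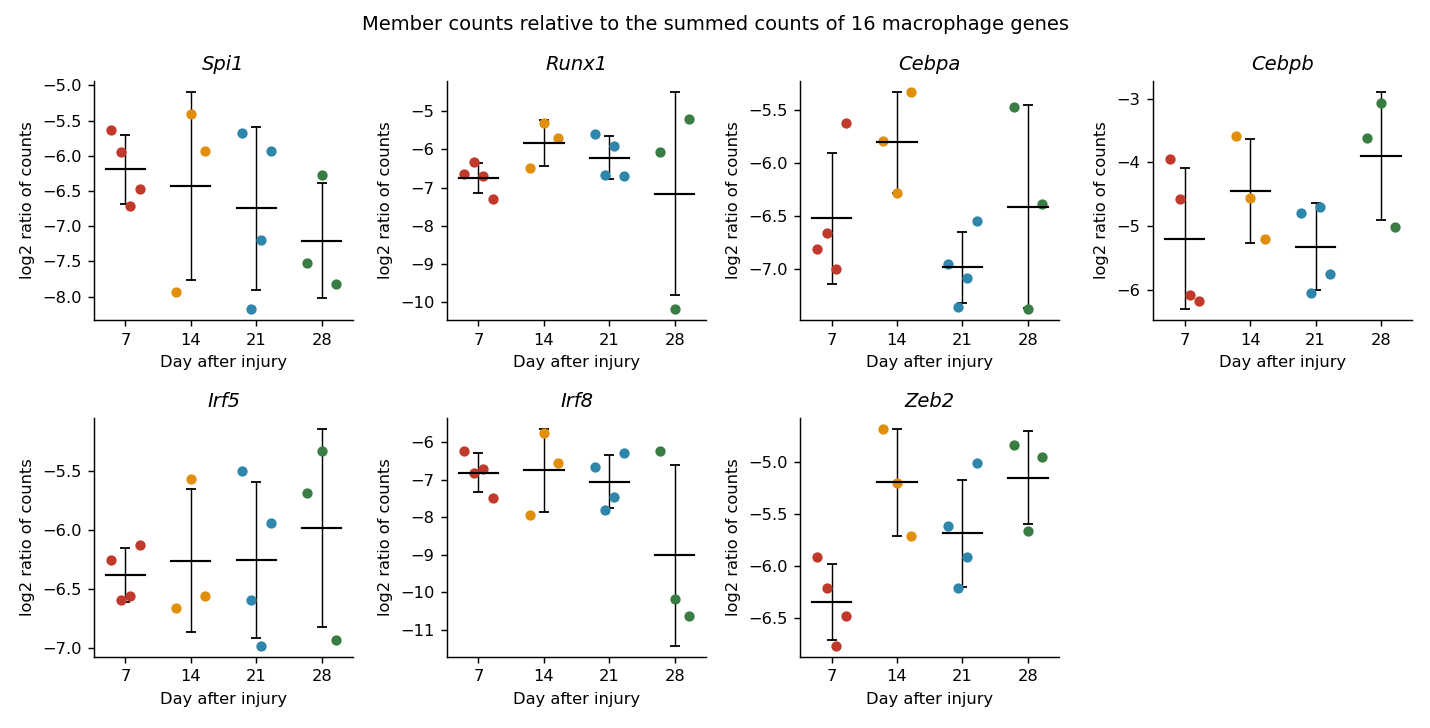
Log2 ratio of each gene's counts to the summed counts of 16 macrophage genes in the same library, with 0.5 added to both, on days 7, 14, 21 and 28 after injury. Points are libraries, lines means and error bars 1 SD. The Zeb2 points of days 14 and 28 lie above those of day 7, and 0 of 21 differences from day 7 passed after adjustment.

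Other cell types also moved. The smooth muscle sum (7 genes, all lower on day 7) was 35106 ± 2290 CPM before injury, 3455 ± 2515 at day 7 and 23371 ± 4305 at day 28. Neutrophil markers (11 genes) summed to 54.6 CPM on day 0 and 462 CPM on day 7. On day 7, 6 of the 11 were at 0 (Ngp, Camp, Ltf, Ly6g, Elane and Mpo), and Elane and Mpo were at 0 in every library. Only 3 were abundant enough to test, S100a8, S100a9 and Cxcr2, and all 3 were called higher on day 7. The Cxcr2 call (edgeR, adjusted p = 0.0463) was lost in 18 alternatives. Cxcr2 made up most of the day 0 sum, at 26.8, 43.0, 99.9 and 31.5 CPM, where S100a8 and S100a9 were at most 2.62 CPM. Dendritic cell markers (8 genes) summed to 9.38 CPM before injury, 85.7 CPM at day 7 and 8.68 CPM at day 28, with Clec9a at 0 on every day. B cell markers (6 genes) had a summed level of 7.13 CPM on day 0 and 88.0 CPM on day 21, T cell markers (8 genes, none tested) had mean sums between 17.1 and 36.2 CPM, and 5 of 6 mast cell markers were at 0 on day 7. Red cell genes (5, of which 4 were called higher on day 7) summed to 214 ± 172 CPM before injury and 1566 ± 962 CPM at day 7. Platelet markers (5 genes) summed to 84.0 ± 25.0 CPM before injury and 287 ± 88.0 CPM at day 7, where Pf4, 1 of the 2 tested, was called higher (4.46 ± 0.54). Pf4 alone held 13.4, 4.78, 5.96 and 15.7 CPM in the day 0 libraries and 265, 340, 134 and 149 CPM in those of day 7. The rise of this sum was thus in Pf4, and the other gene tested was not called. Fibroblast markers (6 genes) summed to 1427 ± 431, 1160.5 ± 529.5, 3008 ± 912, 3019 ± 682 and 1514 ± 201 CPM at days 0, 7, 14, 21 and 28, and on day 7 Pi16, Col14a1 and Dpt were called lower and Lum higher (2.24 ± 0.44). Only Lum was called against day 0 on days 14, 21 and 28. Its libraries held 56.2 to 182 CPM on day 0, 904 to 2076 CPM on day 14 and 1395 to 2322 CPM on day 21. Most of the higher sum on days 14 and 21 was thus Lum. Kit, the 1 mast cell marker tested, was called higher on day 7, from 3 counts to 88, a count ratio with a 95% interval of 12.8 to 190.4. That interval pools the libraries of each day and covers counting error only, while the day 7 libraries held 7.12, 23.4, 93.7 and 38.7 CPM. Which of these cells held the members' transcripts was not tested.

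Genes whose courses were most like each member were sought over all 10312 genes, as the smallest root mean square difference between log2 CPM profiles over 18 libraries, each centred on its own mean. Spi1 was nearest to Clec12a (0.51), Plek (0.64) and Evi2 (0.68), and Irf8 was near to Unc93b1 (0.62) and H2-DMa (0.63). Cebpa was nearest to C1qa (0.50), Fcgr3 (0.55) and Csf1r (0.59), and Irf5 to Rassf2 (0.45), Marcks (0.49) and Fcgr3 (0.52). Clec12a and Fcgr3 encode receptors of myeloid cells, Plek a platelet and leukocyte protein and C1qa a chain of complement C1q. Cebpb was nearest to Ier3 (0.49), Prdx5 (0.54) and Hnrnpf (0.55), Zeb2 to Mfsd1 (0.34), Ptpn1 (0.35) and H2-D1 (0.35), and Runx1 to Cmtm3 (0.70), Arl4c (0.72) and Gm609 (0.74). Genes that scarcely move are closer to any other flat gene, so these distances are not comparable between members.

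Genes that work with the factors were read from hand-written lists that overlap each other. Some of their genes, Irf7 among them, passed the filter on low counts through the injured libraries, so the shares called are a description only. Beside the counts of all these lists, 11.3%, 4.8%, 5.92% and 0.97% of all genes were called higher on days 7, 14, 21 and 28. Among 17 relatives of the members, 12 were tested and 3 were called higher on day 7, a share of the tested genes to be set against the 11.3% of all genes, and 0 lower. Irf7, the interferon-amplifying relative of the IRF members, rose from 2.09 ± 4.18 to 88.9 ± 60.9 CPM (log2 fold change 5.15 ± 1.05, edgeR, adjusted p = 0.000883). Irf1 (1.55 ± 0.54, adjusted p = 0.0444) and Runx2 (3.91 ± 1.33, 0.0389, from 1 count on day 0 to 17 counts on day 7) lost their calls in 12 and 11 alternatives. The Runx2 ratio of counts, pooled over the libraries of each day, has a 95% interval of 3.50 to 933, which covers counting error only. Cbfb, the partner of RUNX1, was the only relative called on day 28, lower by a log2 fold change of -4.09 ± 1.03 (edgeR, adjusted p = 0.0453), from 60 counts to 2, and this was lost in 17 alternatives.

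Of 34 other myeloid transcription factors, 28 were tested, 8 were higher and 1 lower on day 7. Maf, a macrophage factor, rose from 13.9 ± 16.2 to 81.4 ± 47.3 CPM (2.57 ± 0.60, edgeR, adjusted p = 0.00296). Id2, an inhibitor of E proteins that the artery wall also makes, fell from 165 ± 67.5 to 50.5 ± 22.5 CPM (-1.71 ± 0.40, edgeR, adjusted p = 0.00261). Maf was the 1 of the 28 called on day 28 (2.47 ± 0.63, adjusted p = 0.0455), a call lost in 16 alternatives.

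Upstream signals were read in 2 lists. Of 8 tested growth factor and receptor genes (12 listed), 5 were higher on day 7, 2 at each of days 14 and 21, and 0 at day 28. Csf1r, the receptor for the main macrophage growth factor, rose from 22.8 ± 17.6 to 186 ± 46.9 CPM (3.03 ± 0.41, edgeR, adjusted p = 7.58e-06). Csf3r, the G-CSF receptor of granulocytes and a target of C/EBP and PU.1, was at 0 in all day 0 libraries and reached 40.1 ± 5.89 CPM, at least 39.0-fold higher against 3 counts over the group. Ifngr1 rose by 1.03 ± 0.26 (edgeR, adjusted p = 0.00516) and Csf2rb by 2.73 ± 0.81 (0.0176), the latter lost in 4 alternatives. Of 12 tested genes of the Toll-like receptor route to IRF5 (18 listed), 5, 4, 2 and 0 were higher at days 7, 14, 21 and 28. Those with the smallest p were Unc93b1, the chaperone of endosomal receptors (2.94 ± 0.46, edgeR, adjusted p = 4.94e-05), Cd14 (3.36 ± 0.64, 0.000456), Tlr2 (3.41 ± 0.72, 0.00127) and Tlr7, which went from 0 counts to 33, at least 14.4-fold higher.

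Known target genes of the factors were read in 3 lists. Of 17 tested PU.1 targets (18 listed), 16, 14, 13 and 1 were higher at days 7, 14, 21 and 28, with median log2 fold changes of 5.15, 3.44, 3.29 and 1.42. Ctss, a lysosomal protease, rose from 6.89 ± 7.14 to 533 ± 74.3 CPM (6.25 ± 0.62), and the adaptor genes Tyrobp and Fcer1g rose by 4.62 ± 0.47 and 5.46 ± 0.59. Fcer1g was still higher on day 28 (3.42 ± 0.63, edgeR, adjusted p = 0.00657), except in 3 alternatives.

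Of the 13 listed C/EBP targets, 9 were tested, and 9, 5, 5 and 0 of them were higher at days 7, 14, 21 and 28. Of these 9 genes, 4 had no day 0 counts and so passed the filter on low counts through the injured libraries alone. The same held for 3 of the 17 PU.1 targets and 2 of the 8 IRF targets tested. Genes with few day 0 counts also passed only through those libraries, such as Fcer1g, at most 6.56 CPM in a day 0 library. The shares of these lists are a description only. The median log2 fold change on day 7 was 7.43, or 5.81 with the 4 genes that had no day 0 counts set at their lower bound. Lyz2, lysozyme, rose from 129 ± 94.9 to 2686 ± 402 CPM, while Il1b and Hp went from 0 counts to 344 and 161, at least 151-fold and 70.5-fold higher. Most of these counts were in replicates 1 and 2 of day 7, since the 4 libraries held 283, 235, 102 and 4.84 CPM of Il1b and 151, 98.8, 29.9 and 9.69 CPM of Hp, and without replicate 1, a check chosen after the values were seen, the bound for Hp was 44.9-fold. Of 8 tested IRF5 or IRF8 targets (12 listed), 6 were higher on each of days 7, 14 and 21 and 1 on day 28, and 1 was lower on day 7, Cst3, a cystatin made by many cells, named after its value was seen. Cybb, the catalytic subunit of the phagocyte oxidase, rose by 3.09 ± 0.53, and Ciita, the switch for MHC class II genes, from 0 counts to 59, at least 25.8-fold higher. The day 28 call of Ciita (edgeR, adjusted p = 0.0326) rested on replicate 2, which held 37 of the 40 counts, and was lost without it (0.325). On day 28 against day 7, 14 of 17 PU.1 targets, 6 of 9 C/EBP targets and 4 of 8 IRF targets were called lower, and 1 IRF target, Cst3, higher. That comparison called 8.05% of all genes lower. Many of these targets are themselves macrophage markers, so the lists are not independent of the macrophage sum.

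**Figure D4:**
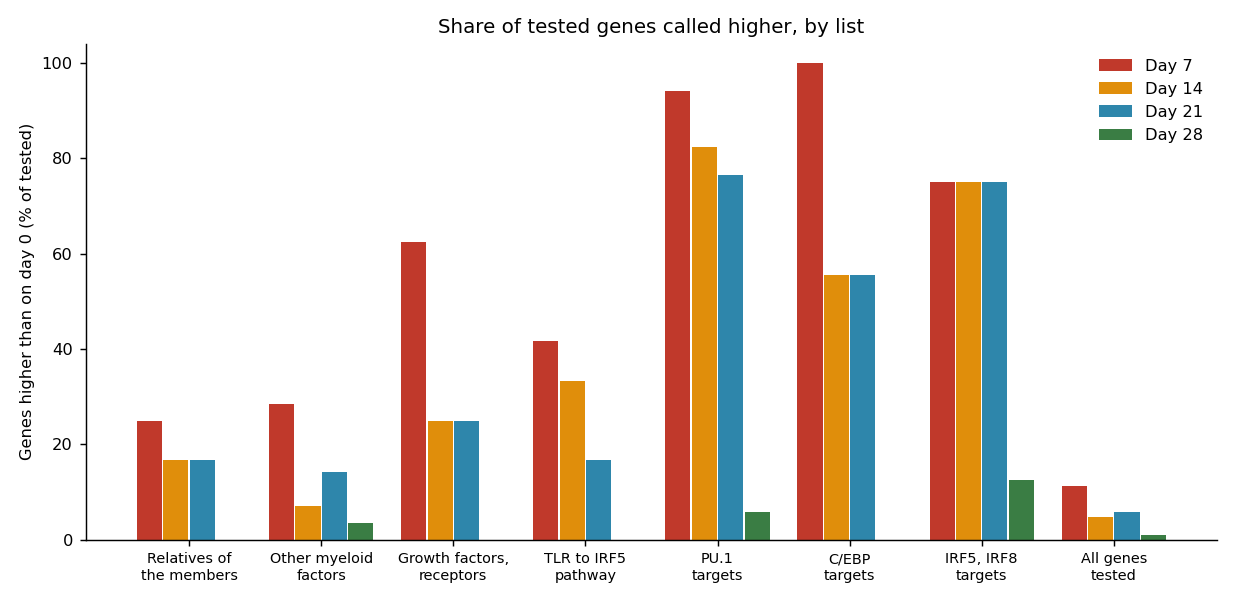
Share of the tested genes of 7 hand-written lists called higher than on day 0 (%), by day after injury, with all 10312 genes tested at the right. Shares come from 8 to 28 tested genes per list, the lists overlap, and marker lists are not shown. The shares are a description only, since some genes passed the filter on low counts through the injured libraries. The C/EBP and PU.1 target lists have the highest shares on day 7, and none of the 7 lists has more than 1 gene called higher on day 28.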

How the data were processed

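Estimated counts per gene (expected counts) were deposited by the authors as whole numbers, made with Salmon 1.9.0 on mm39 after PCR duplicates had been collapsed by molecular identifier and reads trimmed. A table of normalised values was not used here. The submitters' processing notes also name DESeq2 1.36.0, and an annotation release is not given in the sources used here. Libraries were grouped by their labelled day. One model over 18 libraries was fitted (R 4.3.3, edgeR 4.0.16, filterByExpr, TMM, two-sided quasi-likelihood test), p-values were adjusted by Benjamini-Hochberg across the 10312 genes tested, and 0.05 was the threshold. CPM use TMM library sizes. P-values measure the spread between these libraries, which may in part be technical. The likeness of genes used log2 CPM with a prior count of 2, and ratios used a prior count of 0.5 with exact permutation tests.

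Alternatives were RLE size factors, DESeq2 1.42.0, limma-voom (limma 3.58.1) with and without a mouse block, no filter, only the compared days, a replicate block, thinning and each library left out. For the 3 mouse numbers found on both day 0 and day 21, residual correlations were -0.01 to 0.06. The steps were tested on simulated data. Gene positions are from the GENCODE annotation of GRCm39, the build of mm39. The members and lists were chosen with earlier results of these data known. Genes named beside the members are, per list, at most the 4 smallest p among those called on day 7 and the 2 on day 28, and the 3 most alike per member. Some genes under this rule are not reported here. The ratio of Cebpa to Cebpb and the remarks on single libraries were chosen after the values were seen.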

Additional observations from a re-analysis of the deposited data

Results flagged for a closer look

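In 2 of 21 groups of 4 libraries, 1 library stood apart from the others by Dixon's test. Chance flags about 1 in 20 groups of continuous values, but both groups hold 3 zeros and 1 other value, for which the gap is the whole range whatever that value is, so this rate does not apply to them. Replicate 4 of day 0 held all the Spi1 counts of that day, at 5.25 CPM against 0 in the other three. Replicate 1 of day 0 held all the Irf8 counts of that day, at 11.9 CPM against 0 in the other three. Without the latter library, Irf8 passed the edgeR test on day 14 (adjusted p = 0.00402) and day 21 (0.00545), as the report gives.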

How the results depend on the processing

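Over 63 fold changes of the members (7 genes, 9 comparisons), 1616 alternative values kept their direction where called: 1523 stayed on their side of the threshold, 61 lost it, 32 gained it and 0 reversed. Of 20 called fold changes, 9 held under every alternative run. Called members against day 0 ranged, with each library left out in turn, from 4 to 7 at day 7, 2 to 5 at day 14, 2 to 4 at day 21 and 0 to 0 at day 28. Against day 7 the ranges were 0 to 0 at day 14, 0 to 1 at day 21 and 3 to 6 at day 28, and those between days 14 and 21 and between days 21 and 28 were 0 to 0 and 0 to 1. DESeq2 and the fit with no filter each called 5 members at day 14, 5 at day 21 and 2 for day 21 against day 7. A fit of only the 2 days compared gave 1, 1 and 3, but there the filter on low counts left out Spi1, Runx1, Irf5 and Irf8 at day 14 and Spi1 at day 21, which had no value and are not lost calls. limma-voom called 0 on day 21 against day 7, and with the mouse number as a block it called 5 on day 21 against day 0 and 0 on day 21 against day 7.

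The replicate number as a block called 0 members on day 21 against day 7, and lost Cebpa on day 21 (adjusted p = 0.057), Cebpb on day 21 against day 7 (0.0759) and Zeb2 on day 28 against day 7 (0.0649), with no other change of call. Replicate numbers did not pair the libraries: 33 same-number pairs had a median residual correlation of -0.01 (-0.13 to 0.20), and 2 of 18 libraries correlated best with their own number. The cause of the other changes was not tested. Counts of 0 to 12 for several members on day 0 limit the precision of their fold changes.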
